A study of Mus musculus with 16 samples.

Results

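The striatum of BACHD mice given a virus for overexpression of Foxp2 was set against that of control mice given the same virus. These are 8 of the 16 libraries of the series, 4 BACHD+Foxp2 mice and 4 Con+Foxp2 mice, chosen by their labelled genotype and virus, and all genes were tested. All mice were 13 months old and RNA was taken from the striatum. BACHD mice, a model of Huntington disease, bear mutant human huntingtin on a bacterial artificial chromosome. The BACHD+Con and Con+Con groups, 4 mice each, received a control virus, so every mouse of the series had been injected. The virus type, its promoter, the mouse strain and the interval between injection and harvest are not given in the labels.

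Huntingtin is a large scaffold protein, and its expanded form damages the striatum first, above all the GABAergic projection neurons. Those neurons fall into a direct pathway, marked by dopamine receptor 1, substance P and dynorphin, and an indirect pathway, marked by dopamine receptor 2, adenosine receptor 2a and enkephalin. Foxp2 is a forkhead transcription factor that these neurons express, and it often represses the genes it binds.

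Each of the 8 libraries held 2746095 to 3669748 reads assigned to genes, 23.2% to 24.7% of the listed reads. Levels are CPM, reads scaled to a common library total, and 3 counts in 1 library, the floor used here, corresponded to 0.819 to 1.10 CPM. Markers of striatal projection neurons summed to 1582 to 2121 CPM in BACHD+Foxp2 and 1517 to 1891 CPM in Con+Foxp2. Markers of cortical neurons summed to 541 to 1049 CPM in BACHD+Foxp2 and 307 to 923 CPM in Con+Foxp2. Choroid plexus markers reached 4970 CPM in BACHD+Foxp2 mouse 3, 2999 CPM in Con+Foxp2 mouse 3 and 2728 CPM in Con+Foxp2 mouse 4, against 162 to 407 CPM in the other 5 libraries. All 3 red cell markers were at 0 in every library of the series, these 8 included. Alas2, a gene of the red cell list, had 13.9 to 31.3 CPM in BACHD+Foxp2 and 16.1 to 22.6 CPM in Con+Foxp2. The absence of blood is therefore not shown. The summed markers of all 10 cell types overlapped between the groups or were 0 in both. The number of genes with reads did not overlap: it was 15559 to 15955 in BACHD+Foxp2 and 16130 to 16571 in Con+Foxp2, at overlapping read totals. Under the control virus it overlapped, at 15641 to 16077 in BACHD+Con and 15620 to 16580 in Con+Con.

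Of 13563 genes tested, 8 differed between BACHD+Foxp2 and Con+Foxp2 mice, which is 0.059% (edgeR's quasi-likelihood test, Benjamini-Hochberg adjusted p under 0.05). Htt was the gene that was higher, and 7 genes, among them Foxp2, Col23a1, Frmpd1, Cdh4, Elfn1 and Pax7, were lower in BACHD+Foxp2. In all 7 of the lower genes the 4 Con+Foxp2 libraries lay above the other 12 libraries of the series, BACHD+Foxp2 included. That pattern was seen in 24 of the 13563 tested genes (0.177%). The test chose the 7 for being lower in BACHD+Foxp2 than in Con+Foxp2, so this is a description. The median log2 fold change over all tested genes was 0.01. Unadjusted p was under 0.05 for 567 genes, 254 higher (1.87% of those tested) and 313 lower (2.31%). DESeq2 called 15 genes, the same 8 and 7 more. The count was 4 without BACHD+Foxp2 mouse 4, and Htt, Foxp2, Col23a1 and Frmpd1 were called in each of the 18 alternative fits.

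Promoters of 4 of the lower genes are shown because Foxp2, itself lower, is a DNA-binding forkhead factor. They are 300-base windows around each gene's start in RefSeq (GRCm38.p6), 5′ to 3′ on the gene's strand, and the table held 5 of the 8 called genes. The RefSeq start can differ from the GENCODE gene limits given below: the Pax7 window lies wholly inside those limits and the Elfn1 window ends before them. Col23a1 lies at chr11:51289670-51289969 on the plus strand, Frmpd1 at chr4:45184656-45184955 on the plus strand, Elfn1 at chr5:139907616-139907915 on the plus strand and Pax7 at chr4:139832919-139833218 on the minus strand. Capitals mark TGTTT, the core of forkhead motifs, searched on both strands.
Col23a1: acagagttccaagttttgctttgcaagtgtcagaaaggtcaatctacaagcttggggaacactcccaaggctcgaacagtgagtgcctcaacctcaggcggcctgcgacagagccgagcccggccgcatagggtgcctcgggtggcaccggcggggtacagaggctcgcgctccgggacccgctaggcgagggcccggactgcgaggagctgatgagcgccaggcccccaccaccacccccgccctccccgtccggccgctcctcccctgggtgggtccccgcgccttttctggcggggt
Frmpd1: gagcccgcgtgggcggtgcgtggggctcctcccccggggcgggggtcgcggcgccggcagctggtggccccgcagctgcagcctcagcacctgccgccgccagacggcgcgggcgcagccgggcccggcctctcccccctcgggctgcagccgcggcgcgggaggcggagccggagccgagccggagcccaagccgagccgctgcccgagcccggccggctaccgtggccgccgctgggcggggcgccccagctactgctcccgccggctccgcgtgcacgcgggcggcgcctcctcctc
Elfn1: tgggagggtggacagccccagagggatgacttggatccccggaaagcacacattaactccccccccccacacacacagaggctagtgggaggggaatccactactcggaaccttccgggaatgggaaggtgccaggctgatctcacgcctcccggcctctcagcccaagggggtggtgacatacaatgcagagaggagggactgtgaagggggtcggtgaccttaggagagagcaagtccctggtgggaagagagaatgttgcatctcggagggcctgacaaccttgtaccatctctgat
Pax7: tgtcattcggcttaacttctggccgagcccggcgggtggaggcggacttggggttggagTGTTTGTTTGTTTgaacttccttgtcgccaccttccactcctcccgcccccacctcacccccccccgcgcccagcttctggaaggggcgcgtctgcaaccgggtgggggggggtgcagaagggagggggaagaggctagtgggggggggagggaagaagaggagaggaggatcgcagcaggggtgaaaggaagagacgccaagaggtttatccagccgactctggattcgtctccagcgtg
The core TGTTT, or AAACA on the other strand, was found 3 times in the Pax7 window, as overlapping matches in 1 run, and 0 times in those of Col23a1, Frmpd1 and Elfn1. It stood in 50.5% of the 32851 windows of that length in the RefSeq table. The longer forkhead motif TGTTTAC, or GTAAACA, was in none of these 4 windows and in 3.65% of all windows. GC content was 67.7% in the Col23a1 window, 83.3% in Frmpd1, 59% in Elfn1 and 63.7% in Pax7. These windows are short, and a match or its absence there says nothing about binding.

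Htt (chromosome 5, 34761740 to 34912534, GRCm38), the mouse huntingtin gene and the check of the genotype labels, was higher in BACHD+Foxp2. Its level was 483, 594, 579 and 555 CPM in the BACHD+Foxp2 mice, against 272, 258, 246 and 249 CPM in the Con+Foxp2 mice. Every BACHD+Foxp2 library lay above every Con+Foxp2 library. The means were 553 ± 49.5 and 256 ± 11.8 CPM (SD, n = 4 each), and the log2 fold change of 1.11 had an SE of 0.12 (adjusted p = 6.36e-05). Reads were aligned to the mouse genome, so whether a read counted here came from the mouse gene or from the human transgene cannot be told apart. Under the control virus the log2 fold change was 1.08 (SE 0.12, adjusted p = 9.39e-05), with 608 ± 123 CPM in BACHD+Con and 286 ± 27.8 CPM in Con+Con. The difference of these 2 log2 fold changes was 0.03 (SE 0.17).

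Msantd1, the gene after Htt on chromosome 5 (34908012 to 34923839), overlaps Htt by 4523 bp on the same strand, so its counts are uncertain. It averaged 23.4 ± 3.55 CPM in BACHD+Foxp2, 277 reads in all, and 3.91 ± 3.80 CPM in Con+Foxp2, 49 reads with 0 in mouse 3. The groups did not overlap, and the log2 fold change of 2.58 (SE 0.53, edgeR adjusted p = 0.0768) missed the threshold. Under the control virus Msantd1 passed it, with 29.6 ± 13.3 CPM in BACHD+Con and 2.62 ± 1.07 CPM in Con+Con (log2 fold change 3.46, SE 0.55, edgeR adjusted p = 0.016). That call was lost under the replicate block (adjusted p = 0.0623) and without BACHD+Con mouse 3 (0.127) or Con+Con mouse 1 (0.0700), 2 (0.143) or 4 (0.139). Of 9 tested neighbours of Htt, a list made after earlier results, 0 were called by edgeR under the Foxp2 virus and 1 (Msantd1) was called by DESeq2 (adjusted p = 0.000143). Msantd1 and 1 other had an unadjusted p under 0.05, both higher, as had 1.87% of all tested genes. The other of these, Adra2c, an adrenergic receptor gene of striatal neurons, averaged 30.1 ± 9.68 CPM in BACHD+Foxp2 and 17.2 ± 4.36 CPM in Con+Foxp2 (log2 fold change 0.80, SE 0.30, unadjusted p = 0.0127). Add1, a cytoskeletal gene upstream of Htt, had a log2 fold change of -0.01 (SE 0.11) and Lrpap1, a receptor chaperone, one of 0.06 (SE 0.13).

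Foxp2 (chromosome 6, 14901349 to 15441977), the delivered gene, was lower in BACHD mice given its virus than in control mice given it. It reached 1729, 1291, 1431 and 1929 CPM in BACHD+Foxp2, against 3819, 4389, 4350 and 3500 CPM in Con+Foxp2. The highest BACHD+Foxp2 library lay below the lowest Con+Foxp2 library. The means were 1595 ± 288 and 4015 ± 431 CPM, 2.52-fold lower in BACHD+Foxp2 (log2 fold change -1.33, SE 0.16, adjusted p = 9.64e-05). Both groups stood above the control-virus libraries, which lay at 87.3 to 153 CPM in BACHD+Con and 93.2 to 150 CPM in Con+Con. Delivered and native transcripts are counted together. Every Con+Foxp2 mouse had more Foxp2 than every BACHD+Foxp2 mouse, so for each gene below the genotype and the Foxp2 level cannot be told apart.

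**Figure D1:**
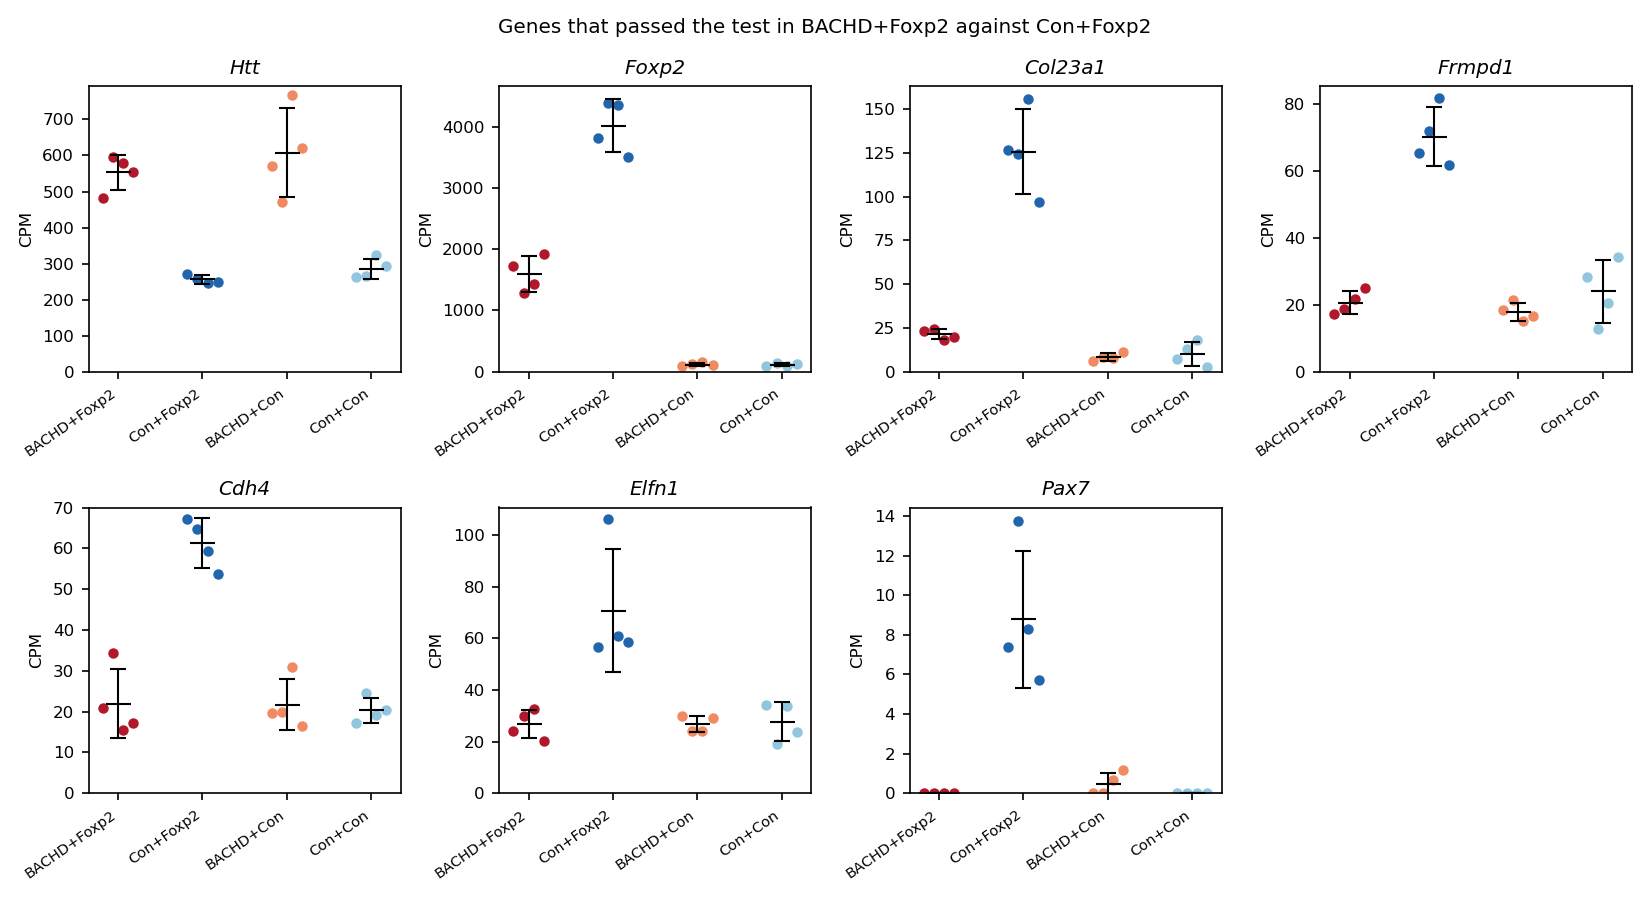
Level in CPM of 7 genes that differed between BACHD+Foxp2 and Con+Foxp2 mice, in all 4 groups; points are mice and bars are mean ± SD (n = 4). Htt is high in both BACHD groups, and the others are highest in the 4 Con+Foxp2 mice.

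Col23a1, Cdh4 and Elfn1 encode proteins of the cell surface. Col23a1 (chromosome 11, 51289920 to 51583918), a membrane-spanning collagen, had 23.4, 24.2, 18.2 and 20.1 CPM in BACHD+Foxp2 and 126, 124, 156 and 96.7 CPM in Con+Foxp2. The groups were far apart, with means of 21.5 ± 2.81 and 126 ± 24.0 CPM (log2 fold change -2.55, 95% interval -3.15 to -1.94, adjusted p = 7.29e-05). The BACHD+Foxp2 libraries nevertheless lay above those of BACHD+Con, which held 6.19 to 11.2 CPM, and Con+Con averaged 10.2 ± 6.76 CPM.

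Cdh4 (chromosome 2, 179442431 to 179899373), which encodes R-cadherin, an adhesion molecule of developing axons, had 20.9, 34.4, 15.5 and 17.2 CPM in BACHD+Foxp2 and 67.3, 64.8, 59.3 and 53.8 CPM in Con+Foxp2. Its log2 fold change was -1.48 (SE 0.24, adjusted p = 0.0063). The BACHD+Foxp2 values overlapped those of BACHD+Con, at 16.6 to 30.9 CPM, and of Con+Con, at 17.1 to 24.4 CPM. Without BACHD+Foxp2 mouse 4 its adjusted p was 0.0618. The call was also lost without the libraries of over 1000 CPM of Ttr, a choroid plexus gene (log2 fold change -1.44). That fit kept only mice 1 and 2 of Con+Foxp2 and mouse 2 of Con+Con.

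Elfn1 (chromosome 5, 139907943 to 139974722), a postsynaptic adhesion protein that recruits metabotropic glutamate receptors, had 24.1, 30.1, 32.7 and 20.4 CPM in BACHD+Foxp2 and 56.7, 106, 61.0 and 58.7 CPM in Con+Foxp2. The value of Con+Foxp2 mouse 2 stood apart from the other 3. The log2 fold change was -1.40 (SE 0.23, adjusted p = 0.00851) with that mouse and -1.13 (adjusted p = 0.0726) without it. The adjusted p was 0.0603 without BACHD+Foxp2 mouse 1 and 0.0712 without BACHD+Foxp2 mouse 4.

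Frmpd1 (chromosome 4, 45184875 to 45285936), a scaffold with a FERM and a PDZ domain that overlaps the annotated gene Frmpd1os, had 17.2, 18.7, 21.7 and 24.9 CPM in BACHD+Foxp2 and 65.4, 72.0, 81.9 and 61.7 CPM in Con+Foxp2. The groups did not overlap (log2 fold change -1.76, SE 0.23, adjusted p = 0.000402), and BACHD+Foxp2 overlapped BACHD+Con, at 15.1 to 21.5 CPM, and Con+Con, at 12.9 to 34.2 CPM.

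Pax7 (chromosome 4, 139737062 to 139833528), a paired-box transcription factor of muscle stem cells, had 0 reads in all 4 BACHD+Foxp2 mice and 111 reads over the 4 Con+Foxp2 mice. The Con+Foxp2 mice held 7.41, 13.7, 8.29 and 5.73 CPM. Set against 3 counts over the BACHD+Foxp2 group, Pax7 was at least 34.1-fold lower there (adjusted p = 0.0266). It was at 0 in all Con+Con mice and between 0 and 1.16 CPM in BACHD+Con. The call was lost in each of the 8 fits that left out 1 of these libraries, with adjusted p from 0.0789 to 0.173. It was also lost without the libraries of over 1000 CPM of Ttr, a fit that kept only mice 1 and 2 of Con+Foxp2.

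**Figure D2:**
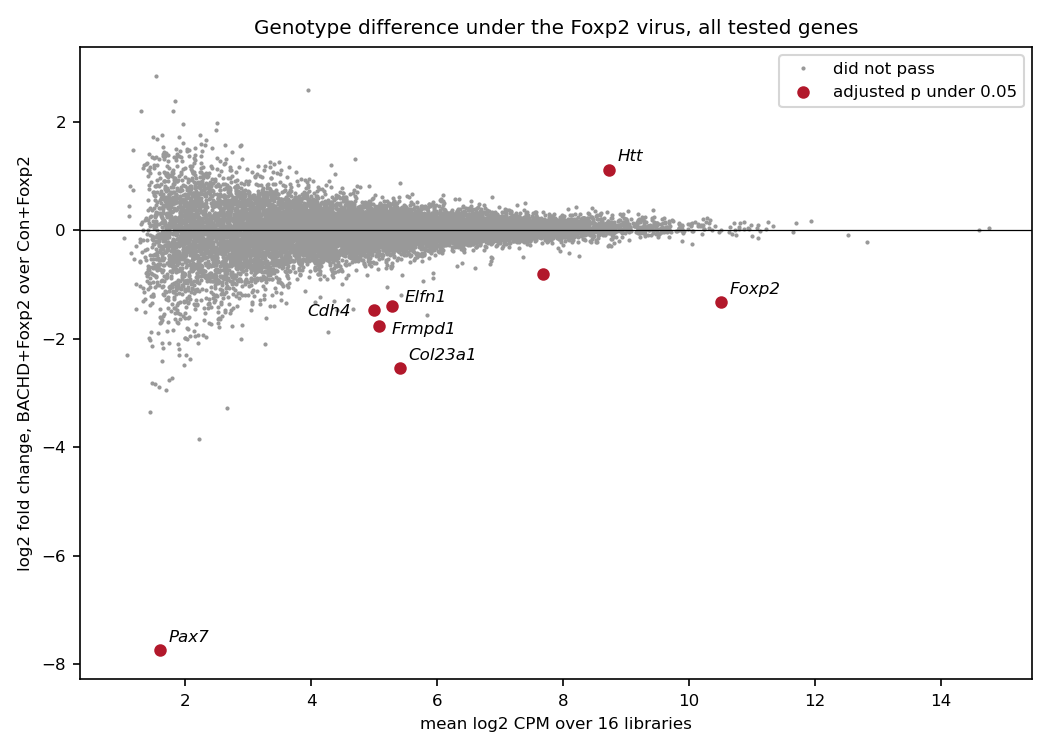
Log2 fold change of BACHD+Foxp2 over Con+Foxp2 against mean log2 CPM over 16 libraries, for the 13563 tested genes; red points are the 8 called. Most genes lie near 0, and the Pax7 point is a fitted value against a group with no reads, so its height is no measure of size.

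The next 12 genes by p did not pass the edgeR test, and those described are given as values. Among all 20, 17 were lower and 3 higher in BACHD+Foxp2, and in 19 the groups did not overlap. Since p chose them, this is a description; among all tested genes 190 (1.4%) had the 4 BACHD+Foxp2 libraries all above and 217 (1.6%) all below. In 11 of the 20, Con+Foxp2 lay above the other 12 libraries, a pattern that 24 of 13563 genes showed (0.177%).

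Foxf1, a forkhead factor of developing mesenchyme, stood at 0.366, 0.982, 2.75 and 3.51 CPM in BACHD+Foxp2 and at 27.1, 16.7, 18.9 and 13.7 CPM in Con+Foxp2. These were 23 reads in BACHD+Foxp2 and 242 in Con+Foxp2 (log2 fold change -3.28, SE 0.65, edgeR adjusted p = 0.0679). Foxf1 was called by DESeq2 (adjusted p = 4.26e-05), by voom, by the fit of the 8 libraries alone and without a filter. It was also called without the 3 libraries lowest in cortical markers. Those 3 are control-virus libraries, BACHD+Con mice 2 and 3 and Con+Con mouse 4, so that fit kept all 8 compared libraries. Tcerg1l, a paralogue of a transcription elongation regulator, averaged 3.51 ± 1.76 CPM in BACHD+Foxp2 and 15.1 ± 1.30 CPM in Con+Foxp2. It missed the edgeR threshold (adjusted p = 0.263) and was called by DESeq2.

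Genes of glia and of signalling were among these 12. Dio2, the astrocytic enzyme that activates thyroid hormone, had 53.0, 57.6, 43.4 and 46.6 CPM in BACHD+Foxp2 and 85.7, 81.8, 89.8 and 89.0 CPM in Con+Foxp2 (log2 fold change -0.79, edgeR adjusted p = 0.0768). Dio2 was called by DESeq2 (adjusted p = 0.00369), by voom, by the fit of the 8 libraries alone and without the 3 libraries lowest in cortical markers. Its BACHD+Foxp2 values overlapped BACHD+Con, at 40.6 to 60.5 CPM. Kcnj10, the potassium channel of astrocytes, averaged 297 ± 32.7 CPM in BACHD+Foxp2 and 415 ± 82.2 CPM in Con+Foxp2, and 1 BACHD+Foxp2 mouse overlapped the other group. Pmepa1, an inhibitor of TGF-beta signalling, averaged 91.4 ± 17.8 CPM in BACHD+Foxp2 and 142 ± 14.7 CPM in Con+Foxp2 (edgeR adjusted p = 0.251), and DESeq2 called it (adjusted p = 0.0405). Il1rap, a subunit of the interleukin 1 receptor, was the other way, at 59.1 ± 11.7 CPM in BACHD+Foxp2 and 32.2 ± 6.42 CPM in Con+Foxp2 (log2 fold change 0.87, edgeR adjusted p = 0.797).

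Genes of mitochondrial proteins were also among them. Cox4i1, a subunit of cytochrome c oxidase, had 227, 229, 199 and 208 CPM in BACHD+Foxp2 and 298, 288, 293 and 277 CPM in Con+Foxp2 (log2 fold change -0.42, edgeR adjusted p = 0.162). Here the BACHD+Foxp2 libraries were the ones apart: BACHD+Con held 261 to 306 CPM and Con+Con 284 to 308 CPM. Ndufa4, another subunit of that complex, was also lowest in BACHD+Foxp2, at 39.9 ± 3.61 CPM, against 59.4 ± 8.80 in Con+Foxp2, 57.9 ± 4.03 in BACHD+Con and 56.0 ± 2.46 in Con+Con. BACHD+Foxp2 lay below all 12 other libraries for 15 of 13563 genes (0.111%), these 2 among them. Gcsh, of the glycine cleavage system, averaged 12.3 ± 4.01 CPM in BACHD+Foxp2 and 29.1 ± 10.7 CPM in Con+Foxp2, and Mtg2, a GTPase of the mitochondrial ribosome, 3.71 ± 2.33 and 11.5 ± 2.15 CPM in the same order. The wider list of 25 respiratory chain genes had a median log2 fold change of -0.02, with 10 higher, 15 lower and 0 called by edgeR. Cox4i1 and Ndufa4 were the 2 with an unadjusted p under 0.05, both lower, as had 2.31% of all tested genes. DESeq2 called Cox4i1.

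Under the control virus, BACHD+Con against Con+Con, edgeR called 2 genes, Htt and Msantd1 (0.0147% of those tested), and 466 had an unadjusted p under 0.05. Htt was the 1 gene that edgeR called under both viruses. DESeq2 called Htt and Msantd1 under both, as did edgeR without a filter on low counts. The control-virus log2 fold changes of lower genes were 0.01 (SE 0.17) for Foxp2, -0.30 (SE 0.35) for Col23a1, 0.10 (SE 0.24) for Cdh4, -0.05 (SE 0.24) for Elfn1 and -0.41 (SE 0.24) for Frmpd1. Whether the genotype difference itself differed between the viruses was tested as an interaction. By edgeR 0 of 13563 genes passed (0%), with 516 at an unadjusted p under 0.05; DESeq2 called 4, Cdh4, Col23a1, Foxp2 and Pax7. The lowest edgeR adjusted p was that of Foxp2, at 0.077 (log2 difference -1.34, SE 0.23). For Col23a1 the log2 difference was -2.25 (SE 0.45, edgeR adjusted p = 0.362). For Il1rap it was 1.42 (SE 0.34, edgeR adjusted p = 0.809), and its control-virus groups overlapped, at 20.1 to 45.4 CPM in BACHD+Con and 29.6 to 56.9 CPM in Con+Con.

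**Figure D3:**
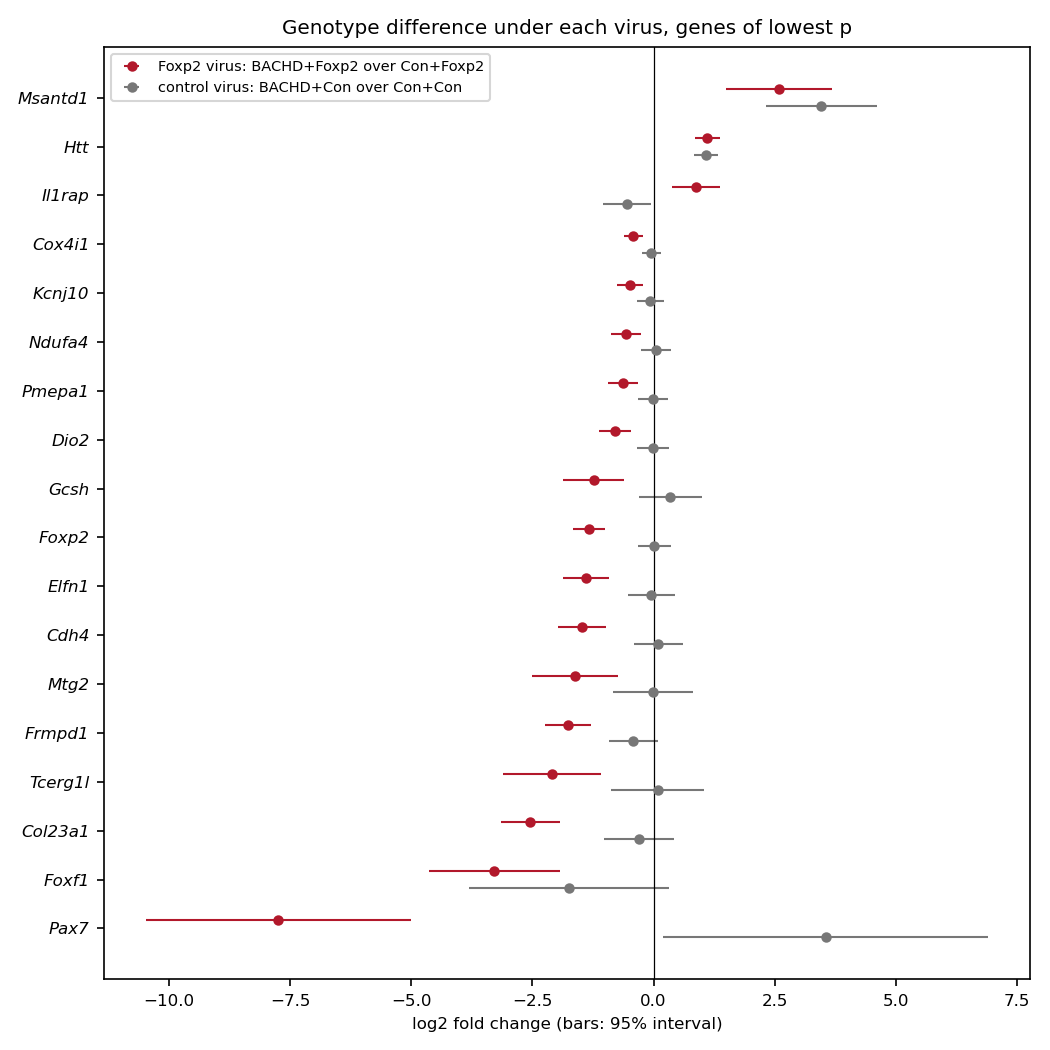
Log2 fold change with 95% interval of BACHD+Foxp2 over Con+Foxp2 (red) and BACHD+Con over Con+Con (grey) for 18 of the 20 genes of lowest p under the Foxp2 virus. Htt and Msantd1 are right of 0 under both viruses and most others left of 0 under the Foxp2 virus; the Pax7 values rest on groups with no or few reads and are no measure of size.

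Some genes that differ between the viruses are given as a description. They were picked after their values were seen, from earlier results in which Con+Foxp2 served in the comparison, so that their levels overlap between BACHD+Foxp2 and Con+Foxp2 says nothing of such genes in general; Cacna1g, described below, does not overlap. Rab3b, a GTPase of synaptic vesicles, had 42.8, 62.8, 55.7 and 68.2 CPM in BACHD+Foxp2 and 52.8, 74.0, 51.4 and 50.2 CPM in Con+Foxp2. Its log2 fold change was 0.01 with a 95% interval of -0.35 to 0.37, and control-virus libraries lay at 28.1 to 32.0 CPM in BACHD+Con and 26.8 to 34.1 CPM in Con+Con. Jun, an AP-1 subunit, averaged 93.5 CPM in BACHD+Foxp2 and 108 CPM in Con+Foxp2 (log2 fold change -0.21, interval -0.62 to 0.19). Gfap, the intermediate filament of astrocytes, had 541, 323, 538 and 604 CPM in BACHD+Foxp2 and 335, 538, 412 and 422 CPM in Con+Foxp2 (log2 fold change 0.23, interval -0.17 to 0.64).

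Pou4f1, a POU homeobox gene of sensory neurons, was at 5.85, 5.56, 5.16 and 16.3 CPM in BACHD+Foxp2 and at 7.08, 19.3, 4.97 and 8.19 CPM in Con+Foxp2, with 0 reads in BACHD+Con. Cdx2, a homeobox factor of the gut, was at 4.02, 4.58, 2.41 and 2.87 CPM in BACHD+Foxp2 and at 2.25, 7.20, 5.30 and 5.46 CPM in Con+Foxp2. Both overlapped, unlike Pax7 and Foxf1, the other transcription factors of low level named above. A test of the difference between these genes was not made.

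Col4a2, Col4a1, Pde2a and Parn, lower with the Foxp2 virus, were picked in the same way. Col4a2, a basement membrane collagen chain, had 82.3, 69.7, 78.1 and 49.1 CPM in BACHD+Foxp2 and 60.5, 56.6, 59.0 and 63.9 CPM in Con+Foxp2 (log2 fold change 0.22, interval -0.09 to 0.52). Its partner Col4a1 averaged 50.6 ± 21.5 CPM in BACHD+Foxp2 and 34.7 ± 2.86 CPM in Con+Foxp2 (log2 fold change 0.54, unadjusted p = 0.0243). Pde2a, a cGMP-stimulated phosphodiesterase, averaged 435 CPM in BACHD+Foxp2 and 413 CPM in Con+Foxp2 (log2 fold change 0.08, interval -0.21 to 0.36). Parn, a poly(A) ribonuclease, averaged 49.2 ± 8.18 CPM in BACHD+Foxp2 and 35.5 ± 6.47 CPM in Con+Foxp2 (unadjusted p = 0.0168). The 95% interval of Col4a1 ran from 0.08 to 1.01 on the log2 scale and that of Parn from 0.09 to 0.84, so equal levels are not shown.

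**Figure D4:**
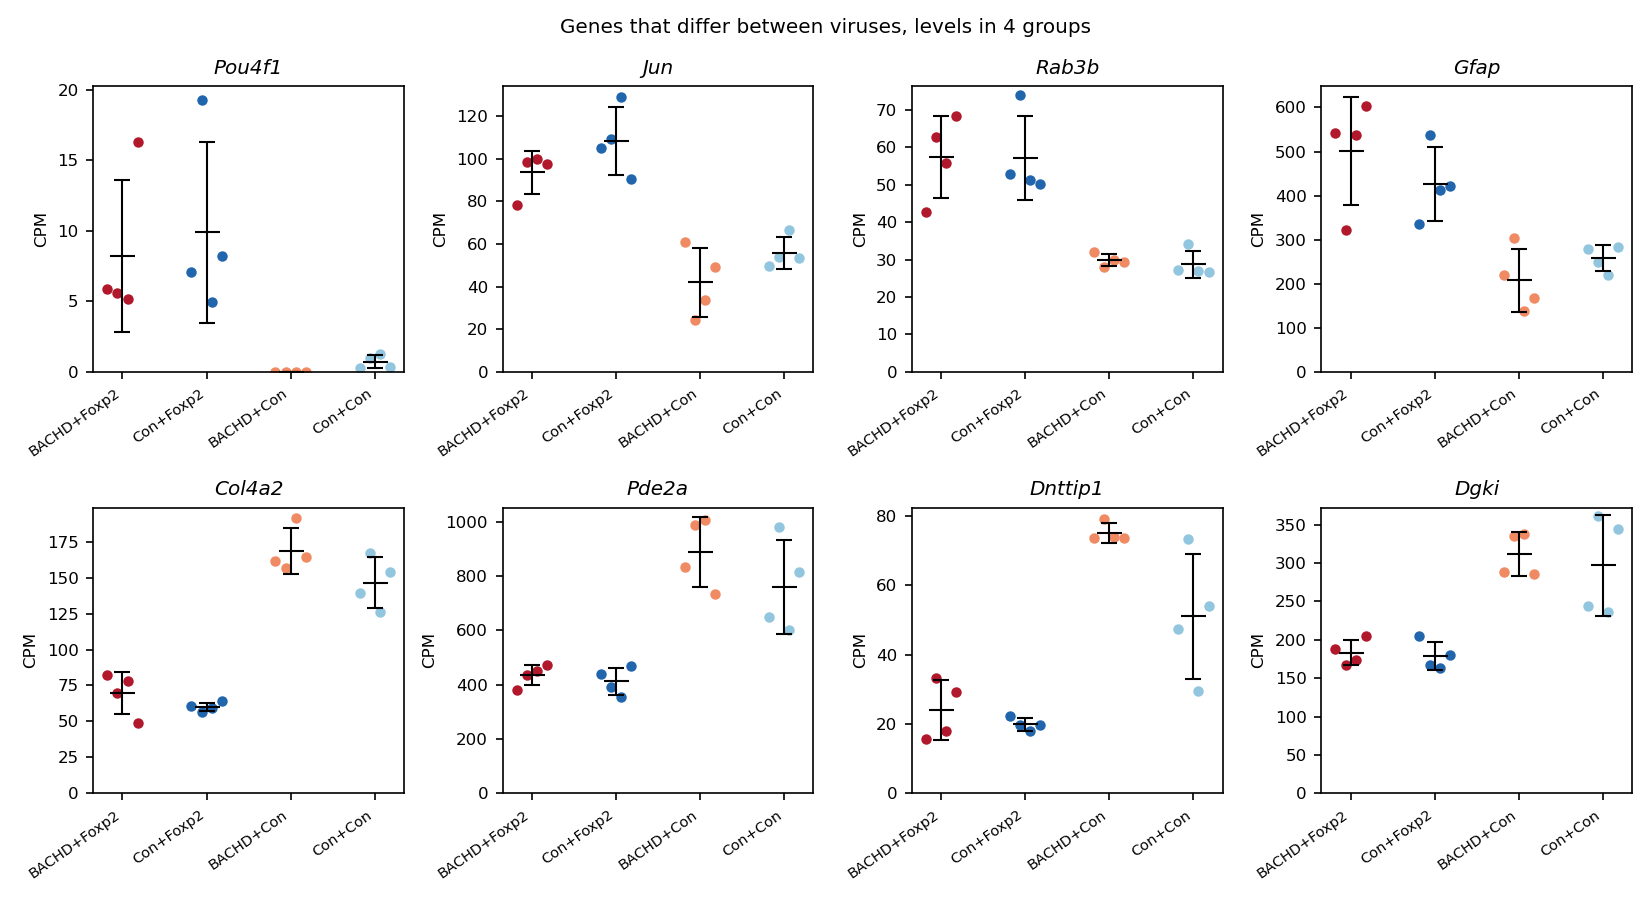
Level in CPM of 8 genes that differ between the viruses, picked after their values were seen, in all 4 groups; points are mice and bars are mean ± SD (n = 4). BACHD+Foxp2 and Con+Foxp2 overlap for each of the 8 genes.

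Genes of striatal projection neurons were looked at in a panel of 16 genes, of which Htt and Foxp2 passed the test and the other 14 did not. Drd1, dopamine receptor 1, averaged 118 ± 18.4 CPM in BACHD+Foxp2 and 99.9 ± 16.1 CPM in Con+Foxp2. Drd2, dopamine receptor 2, averaged 75.6 ± 13.6 CPM in BACHD+Foxp2 and 76.0 ± 14.9 CPM in Con+Foxp2. In bulk tissue, fewer cells of a type and less RNA per cell cannot be told apart.

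The direct pathway peptides were the panel genes of this kind with the lowest p. Pdyn, prodynorphin, had 80.5, 49.8, 67.1 and 104 CPM in BACHD+Foxp2 and 33.5, 69.7, 42.4 and 46.1 CPM in Con+Foxp2 (log2 fold change 0.65, unadjusted p = 0.0148). Tac1, the substance P precursor, averaged 80.8 ± 22.5 CPM in BACHD+Foxp2 and 54.3 ± 11.9 CPM in Con+Foxp2 (log2 fold change 0.58, unadjusted p = 0.0405). Neither passed over all genes. Under the control virus the log2 fold change was 0.68 (SE 0.25) for Pdyn and 0.18 (SE 0.26) for Tac1. Penk, the enkephalin precursor of the indirect pathway, averaged 727 ± 153 CPM in BACHD+Foxp2 and 633 ± 96.1 CPM in Con+Foxp2 (log2 fold change 0.20). Ppp1r1b, the phosphoprotein DARPP-32, averaged 485 ± 63.8 CPM in BACHD+Foxp2 and 422 ± 58.9 CPM in Con+Foxp2, and the sodium channel subunit Scn4b 351 ± 42.9 and 305 ± 54.1 CPM in the same order. Pde10a, the striatal phosphodiesterase, averaged 1052 ± 177 CPM in BACHD+Foxp2 and 1040 ± 91.7 CPM in Con+Foxp2. Foxp1, a relative of Foxp2, averaged 416 ± 64.9 CPM in BACHD+Foxp2 and 413 ± 20.9 CPM in Con+Foxp2, below Foxp2 in both. Under the control virus Foxp1 was the more abundant, at 510 CPM in BACHD+Con and 472 CPM in Con+Con. Foxp2 averaged 119 and 118 CPM there, in the same order.

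Lists of these neurons leaned slightly higher, with 0 calls by edgeR or DESeq2. Actn2, Tac1 and Pdyn were their members with an unadjusted p under 0.05. Such a p went with a higher level in 1.87% of all tested genes and with a lower one in 2.31%. Of 25 projection neuron identity genes, 19 were higher and 6 lower in BACHD+Foxp2 (median log2 fold change 0.13, 0.033 to 0.16 over all fits), and of 28 genes that fall in Huntington disease models, 21 were higher and 7 lower (median 0.13, 0.038 to 0.18 over all fits), against a median of 0.01 over all genes. The 2 lists share members. Direct pathway genes had a median of 0.15 (7 of 11 higher, 0.062 to 0.27 over all fits) and indirect pathway genes one of 0.04 (6 of 10 tested higher, -0.073 to 0.11). Actn2, an actin-binding protein of spines, went against them, with 46.8, 60.5, 45.4 and 51.4 CPM in BACHD+Foxp2 and 96.0, 86.7, 69.3 and 72.9 CPM in Con+Foxp2. The groups did not overlap (log2 fold change -0.67, unadjusted p = 0.00604), and under the control virus the log2 fold change was -0.80 (SE 0.22).

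Interneuron genes gave 0 calls by either tool as well, among 9 cholinergic and 14 GABAergic genes tested. Chat and Calb2 had an unadjusted p under 0.05, both lower, as had 2.31% of all tested genes. Chat, which makes acetylcholine in cholinergic interneurons, had 4.39, 2.62, 4.47 and 5.74 CPM in BACHD+Foxp2 and 5.47, 13.7, 6.96 and 8.74 CPM in Con+Foxp2 (log2 fold change -1.01, unadjusted p = 0.0136). The list of cholinergic genes had a median of 0.40, with 6 of 9 tested members higher, so Chat and its list differ in sign; over the alternative fits that median ran from -0.07 to 0.59. Their summed marker level was 27.4 CPM in BACHD+Foxp2 mouse 1 against 7.97 to 11.1 CPM in the other BACHD+Foxp2 mice, and 36.3 CPM in Con+Foxp2 mouse 2 against 12.9 to 16.4 CPM in the other Con+Foxp2 mice. Calb2, calretinin, spread widely, at 5.12, 18.7, 1.72 and 10.5 CPM in BACHD+Foxp2 and 40.9, 78.2, 7.29 and 7.10 CPM in Con+Foxp2 (unadjusted p = 0.00947).

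Astrocyte genes leaned lower in BACHD+Foxp2, 16 of 20 with a median log2 fold change of -0.16 (-0.19 to -0.10 over all fits). Of all tested genes 51.3% were higher. By edgeR or DESeq2 0 of the 20 astrocyte genes listed were called. Of that list 4 had an unadjusted p under 0.05, all lower, as had 2.31% of all tested genes. Dio2, described above as astrocytic, is not in this list, and DESeq2 called it. Glul, glutamine synthetase, averaged lower in BACHD+Foxp2, at 455, 323, 359 and 410 CPM, against 440, 476, 498 and 476 CPM in Con+Foxp2 (log2 fold change -0.29, unadjusted p = 0.0117). Aldoc, an astrocytic glycolysis enzyme, had 379, 368, 302 and 354 CPM in BACHD+Foxp2 and 397, 439, 390 and 410 CPM in Con+Foxp2 (log2 fold change -0.22, unadjusted p = 0.0268). The separate list of reactive astrocyte genes leaned higher, 9 of 12 tested, with a median of 0.20 (0.10 to 0.32 over all fits). Fkbp5, a glucocorticoid-induced chaperone in that list, had 46.8, 42.2, 35.4 and 51.7 CPM in BACHD+Foxp2 and 21.9, 32.7, 31.5 and 31.1 CPM in Con+Foxp2 (log2 fold change 0.59, unadjusted p = 0.00434). Fkbp5 was the 1 member of that list at an unadjusted p under 0.05, and 1.87% of all tested genes had one and were higher. Oligodendrocyte genes had a median of 0.17, with 17 of 20 higher and 0 at an unadjusted p under 0.05; over all fits that median ran from -0.0048 to 0.38, while their summed markers ranged from 2607 to 7417 CPM in BACHD+Foxp2 and from 3773 to 5965 CPM in Con+Foxp2. Microglial genes had a median of -0.07 (-0.12 to -0.031 over all fits).

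Immediate early genes, which neurons switch on with activity, leaned lower in BACHD+Foxp2, 15 of 21 with a median log2 fold change of -0.23 (-0.34 to -0.096 over all fits). By edgeR or DESeq2 0 were called, and 3 had an unadjusted p under 0.05, all lower, as had 2.31% of all tested genes. Dusp1, a phosphatase of MAP kinases, had 21.9, 21.6, 9.63 and 8.93 CPM in BACHD+Foxp2 and 26.7, 25.2, 43.4 and 18.3 CPM in Con+Foxp2 (log2 fold change -0.87, unadjusted p = 0.0107). Npas4, a neuronal activity factor, had 9.14, 18.3, 8.95 and 16.6 CPM in BACHD+Foxp2 and 21.6, 38.0, 21.9 and 9.55 CPM in Con+Foxp2 (unadjusted p = 0.0489). Both genes overlapped between these groups. Under the control virus Npas4 was also lower in BACHD, without overlap (log2 fold change -1.27, SE 0.37), while Dusp1 had a log2 fold change of -0.08 (SE 0.32).

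Partners of huntingtin other than Htt gave 0 calls among 19 by edgeR or DESeq2, and Hip1 and Optn had an unadjusted p under 0.05. Of all tested genes 1.87% had such a p and were higher, and 2.31% had it and were lower. Hip1, an endocytic adaptor that binds huntingtin, averaged higher in BACHD+Foxp2, at 80.1, 106, 112 and 102 CPM, against 74.7, 81.2, 67.6 and 71.8 CPM in Con+Foxp2 (log2 fold change 0.44, unadjusted p = 0.00689). Optn, the autophagy receptor optineurin, averaged lower, at 32.2, 32.1, 32.0 and 21.4 CPM in BACHD+Foxp2 and 41.9, 37.3, 42.8 and 38.5 CPM in Con+Foxp2 (log2 fold change -0.45, unadjusted p = 0.0208). Optn was in the same order under the control virus (log2 fold change -0.59, SE 0.18).

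Of 38 developmental regulators that Polycomb complexes silence in neurons, 10 passed the filter on low counts and the other 28 were too low to test. Pax7 was the 1 called by edgeR; Foxf1, described above, was called by DESeq2 as well. A gene that is high in Con+Foxp2 alone could pass the filter through that group, so no median is read from these 10. The 18 tested genes reported as Foxp2 targets had a median of -0.03, with 8 higher, 10 lower, 0 called by edgeR and 0 at an unadjusted p under 0.05. Cacna1g, a T-type calcium channel, had 94.0, 94.6, 109 and 98.9 CPM in BACHD+Foxp2 and 147, 175, 172 and 153 CPM in Con+Foxp2 (log2 fold change -0.71, edgeR unadjusted p = 0.0158), and the fit of the 8 libraries alone called it. Under the control virus its log2 fold change was -0.51 (SE 0.28), with overlapping groups. Other lists had medians between -0.14 (choroid plexus and ependyma) and 0.12 (forkhead partners of Foxp2), among them synaptic vesicle release at 0.06, glutamate and GABA receptors at -0.01, interferon response at -0.04 and antigen presentation at 0.10. Over all fits the choroid plexus and ependyma median ran from -1.99 to 0.21, and those of glutamate and GABA receptors, interferon response and antigen presentation also turned sign. Of their members Foxp2 was the 1 called by edgeR.

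**Figure D5:**
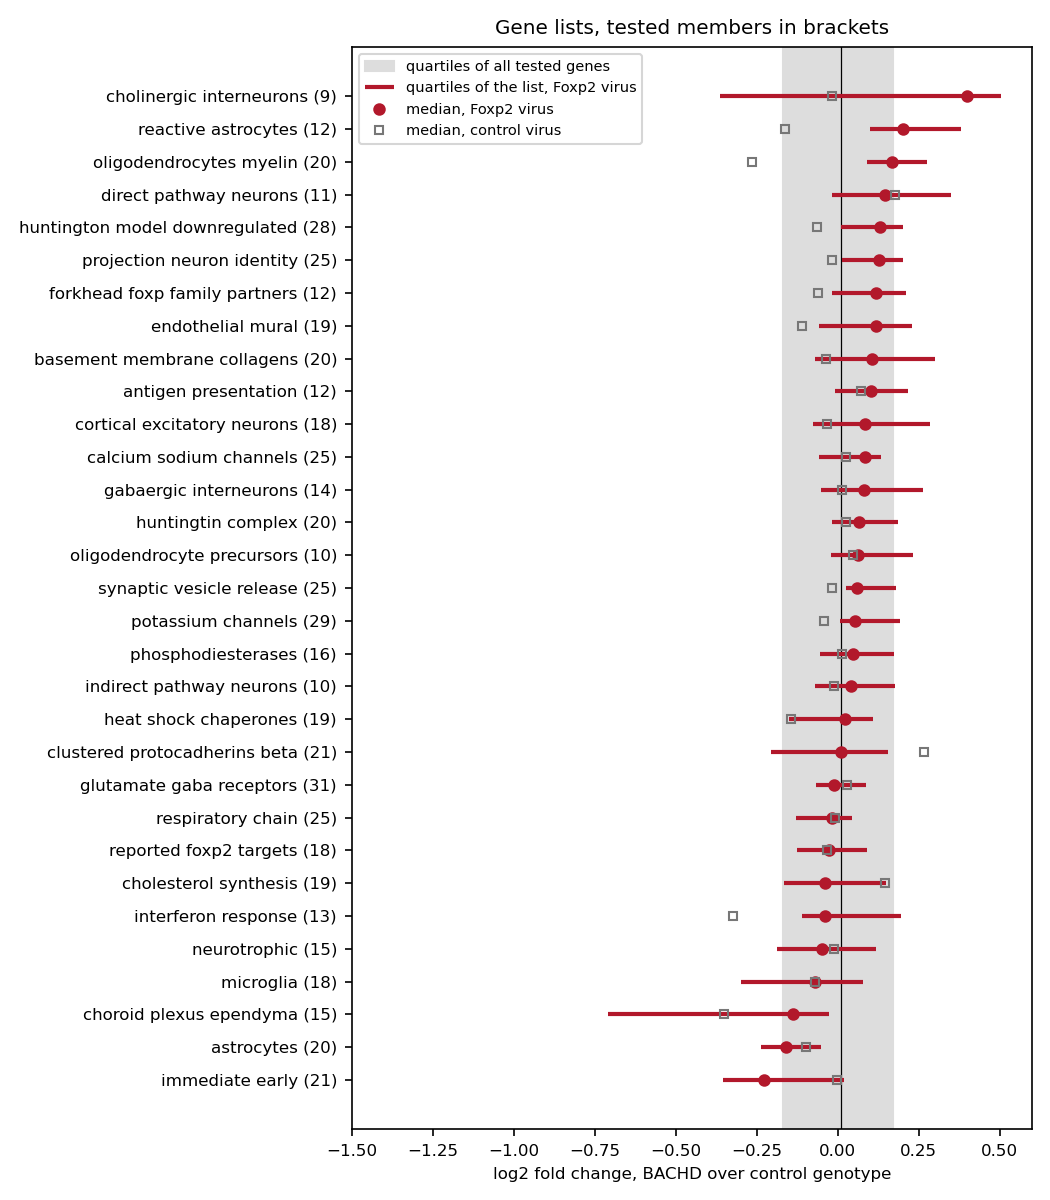
Median log2 fold change of BACHD over control genotype for 31 gene lists with at least 9 tested members, the Polycomb list left out, under the Foxp2 virus (red points, lines from the lower to the upper quartile) and the control virus (open squares); grey spans the quartiles of all tested genes. Most red medians lie inside the grey band, immediate early genes (-0.23) lie below it, and cholinergic interneuron genes (0.40) and reactive astrocyte genes (0.20) above it.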

How the data were processed

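Reads per gene in the striatum of 16 mice were deposited by the authors as 1 table of counts per mouse, whole numbers with no normalization. STAR 2.4.0, HTSeq and DESeq2 are the tools, and mm10 the build, in the submitters' processing notes. The library chemistry was Clontech SMARTer, per the labels' protocols. No source used here says if reads were counted by strand. Lines that sum unassigned reads, 75.3% to 76.8% of the listed reads, were left out. The labels name no batch. Each p-value sets a difference between groups against the spread between mice within groups. An effect shared by all mice of a group is not part of that spread. All 28 pairs of the 8 libraries differed by more than counting error (lowest chi-square per degree of freedom 4.42). Floors cover counting error only.

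Counts were tested with edgeR 4.0.16 in R 4.3.3: trimmed mean of M values, filterByExpr, a mean per group over all 16 libraries (12 residual degrees of freedom), a two-sided quasi-likelihood test and Benjamini-Hochberg adjustment over 13563 genes, called at 0.05. Intervals are 95% and assume that model. The test was checked on simulated counts. Alternatives were DESeq2 1.42.0, limma 3.58.1 (voom), other scalings and filters, a replicate block, the 8 libraries alone, leaving out each library, and 2 exclusions chosen after seeing the data.

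The comparison, the 34 gene lists and the panel were chosen with earlier results of these data known, and lists were given no test. Named genes were the panel of 16, the called genes, the genes of next lowest p (mean log2 CPM of 1 or more) until 20, up to 3 members of lowest p per list described, and genes called for the interaction; neighbours of Htt, virus-responsive genes, Cacna1g and further list members named as values were chosen after values were seen. Coordinates are GENCODE M21 on GRCm38, matched by symbol for 23376 of 24421 genes. Some genes that meet this rule are not reported here.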

Additional observations from a re-analysis of the deposited data

Results flagged for a closer look

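In 88 groups of 4 mice looked at, covering named genes and summed markers, 5 had 1 mouse far from the other 3; chance marks about 1 group in 20. Bdnf, a neurotrophin that cortical neurons supply to the striatum, was at 27.5 CPM in BACHD+Foxp2 mouse 2 and at 5.85 to 9.29 CPM in the other BACHD+Foxp2 mice. That mouse also had the highest cortical marker sum of its group, 1049 CPM. BACHD+Foxp2 mouse 3 had a sum of 996 CPM with Bdnf at 9.29 CPM, and a link between them was not tested. Elfn1 was at 106 CPM in Con+Foxp2 mouse 2 and at 56.7 to 61.0 CPM in the other Con+Foxp2 mice. Choroid plexus markers summed to 4970 CPM in BACHD+Foxp2 mouse 3 and to 162 to 407 CPM in the other BACHD+Foxp2 mice. Cholinergic markers summed to 27.4 CPM in BACHD+Foxp2 mouse 1, against 7.97 to 11.1 CPM in the others of its group. In Con+Foxp2 mouse 2 they summed to 36.3 CPM, against 12.9 to 16.4 CPM in the others of its group.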

How the results depend on the processing

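The count of 8 genes in BACHD+Foxp2 against Con+Foxp2 was 15 with DESeq2, 11 with voom, with the 8 libraries alone or without the 3 libraries lowest in cortical markers, 10 without a filter, 7 to 8 under the other scalings, a filter of at least 1 CPM in 8 libraries (14550 genes tested) and the replicate block, and 4 to 8 with 1 library left out. The 3 libraries lowest in cortical markers, BACHD+Con mice 2 and 3 and Con+Con mouse 4, are not among the 8 compared. Htt, Foxp2, Col23a1 and Frmpd1 were called in all 18 alternatives. Pax7 was lost under the replicate block (adjusted p = 0.191) and, with reads in too few libraries, did not pass the filter of at least 1 CPM in 8. The fit without the libraries of over 1000 CPM of Ttr kept only mice 1 and 2 of Con+Foxp2 and mouse 2 of Con+Con. Cdh4 and Pax7 were lost in it, though the log2 fold change of Cdh4 was -1.44, against -1.48 in the main fit. Prdm16, Sox1, Zic1 and Zic2, which code for transcription factors, were called in that fit alone. Zic1 was at 104 and 171 CPM in Con+Foxp2 mice 1 and 2 and at 16.2 and 29.8 CPM in mice 3 and 4, which were left out. For BACHD+Con against Con+Con the count of 2 was 1 under the replicate block, 3 with DESeq2 and 1 to 2 with 1 library left out; where a call was lost it was Msantd1. For the interaction the count of 0 was 3 without a filter, 4 with DESeq2, and 0 to 1 with 1 library left out. The cause of these moves was not tested. Mice with the same replicate number correlated at -0.07 to 0.10, with 1 of 4 pairs over 0.1, so the numbers were not taken as pairs; the block changed no other call. Some small log2 fold changes that passed no test turned sign. Foxp1 was -0.0093 with library totals, -0.051 without the libraries high in Ttr and -0.087 to 0.095 with 1 library left out. Pde10a was -0.0041, -0.044 and -0.10 to 0.0905 under the same alternatives. Drd2 was 0.016 under the replicate block and -0.12 to 0.092 with 1 library left out; Foxp4 was -0.0094 to 0.28 and Bdnf -0.26 to 0.72 with 1 library left out. Depth limits genes of a few CPM, where 3 counts are about 1 CPM.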

Other observations

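Eomes, a T-box factor of cortical progenitors, was chosen after its values were seen. It was at 0, 3.27, 0 and 0 CPM in BACHD+Foxp2 and at 14.5, 9.16, 17.9 and 8.74 CPM in Con+Foxp2. It did not pass the test (edgeR adjusted p = 0.997). BACHD+Con mouse 2 held 7.60 CPM and the other BACHD+Con mice 0 to 0.385 CPM, and Con+Con mice held 0 to 1.18 CPM.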
